A study of Mus musculus with 8 samples.

Results

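The Hippo effectors examined here were 10 genes, namely the coactivator genes Yap1 and Wwtr1 (the gene of TAZ), the transcription factor genes Tead1, Tead2, Tead3 and Tead4, the kinase genes Lats1 and Lats2, and the angiomotin-like genes Amotl1 and Amotl2. They were taken by symbol from a named list, and all 10 were found among the 54116 genes of the table. RNA was sequenced from mesenchymal stromal cells (MSCs) of the pancreas (pMSC, 4 libraries) and of the inguinal white adipose tissue (iwatMSC, 4 libraries), and the study asked how the MSCs of these organs differ. All libraries came from untreated male C57BL/6J mice, 8 weeks old, with no transgene, and both organs were taken from the same mice. Cells were sorted as CD31-, CD45- and SCA1+, pooled from several mice, and expanded for 4 days in culture, so the values describe cultured cells. Libraries are numbered in the order of their records, no label ties a pMSC to an iwatMSC library, and no source says whether the 4 libraries of an organ are separate pools, so a p-value covers the spread among these libraries alone, which may be technical.

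The Hippo pathway couples cell density, cell shape and matrix stiffness to transcription. When the pathway is active, LATS kinases phosphorylate YAP and TAZ, which are then kept in the cytoplasm or degraded, and angiomotins can hold YAP and TAZ at junctions and actin fibres. When it is inactive, YAP and TAZ enter the nucleus and bind TEAD factors, which carry the DNA-binding domain, and in stromal cells this programme is known for its genes of matrix contact and contraction. This control acts largely on proteins, and RNA libraries do not measure phosphorylation or location.

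Values are FPKM, that is, fragments scaled by transcript length and by the mapped fragments of a library, summed over the transcripts of a gene. The depth in reads is unknown. The labelled cell type was checked against its markers. Summed stroma markers (9 genes, such as Pdgfra and Dcn) lay between 2398 and 2828 FPKM in pMSCs and between 2557 and 3041 FPKM in iwatMSCs. Ly6a (SCA1) was at 73.0 to 114 FPKM in pMSCs and 79.4 to 202 FPKM in iwatMSCs, while Pecam1 (CD31) and Ptprc (CD45) averaged under 1 FPKM. Summed leukocyte markers (7 genes) were at 6.35 to 8.36 and 16.3 to 19.5 FPKM, mostly Cd68 and Csf1r, while Lyz2 was lower in iwatMSCs. Summed endothelial markers (6 genes) were at 2.34 to 3.65 and 7.18 to 9.31 FPKM, mostly Tek. Summed transcripts of 13 digestive enzyme genes of acinar cells were at 354, 194, 65.5 and 85.7 FPKM in pMSC 1 to 4 and at 1.81 to 3.71 FPKM in iwatMSCs, with 1 of the 13 averaging under 1 FPKM and none at 0 throughout, and pMSC 1 and pMSC 2 therefore stand apart. In bulk samples, fewer cells of a type and less RNA per cell cannot be told apart.

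Some members differed in which annotated transcript carried their RNA, so the exons that separate these transcripts are shown first, from GENCODE M21 transcripts on GRCm38. The Yap1 exon below (chr9:7950492-7950539, minus strand, coding) is exon 6 of Yap1-201 and is skipped in Yap1-202. It is in capitals, between 15 bases of each neighbouring exon.
Yap1 exon of 48 bases: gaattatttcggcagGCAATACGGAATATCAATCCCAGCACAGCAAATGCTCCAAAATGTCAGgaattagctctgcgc
Tead1 has a pair of neighbouring coding exons of 63 bases. Tead1-207 has the upstream exon alone (chr7:112841888-112841950, plus strand), Tead1-202 the downstream exon alone (chr7:112842040-112842102, plus strand), and Tead1-201 has both. Both have the same base at 44 of 63 positions (69.8%), and the bases that differ are in capitals.
Tead1 upstream exon: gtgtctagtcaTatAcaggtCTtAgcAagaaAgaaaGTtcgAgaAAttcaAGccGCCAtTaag
Tead1 downstream exon: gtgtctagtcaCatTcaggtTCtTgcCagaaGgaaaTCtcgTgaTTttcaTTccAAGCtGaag
Tead1-207 also includes a coding exon of 12 bases (chr7:112856053-112856064, plus strand), in capitals below between 15 bases of the neighbouring exons.
Tead1 exon of 12 bases: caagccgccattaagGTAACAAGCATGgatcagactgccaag

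At the gene level, none of the 9 members that could be tested was called as different between pMSCs and iwatMSCs, against 19.4% of all 13345 genes tested (9.02% higher and 10.4% lower in pMSCs). The test was limma on log2(FPKM + 1) with Benjamini-Hochberg adjustment over all genes tested and a threshold of 0.05, and fold changes on this scale, given as pMSC minus iwatMSC, understate the change of low genes. An unequal-variance test per gene also called 0 members, though its share of calls over all genes is not given here. By limma, 1 of the 9 (Lats2) had an unadjusted p under 0.05 (11.1%, against 32.8% of all genes tested). For no tested member did the 2 groups lie apart without overlap, as they did for 24.4% of all genes tested. The median log2 fold change was 0.05 over the members and -0.03 over all genes tested. A missed threshold does not show equal levels, so the 95% interval of each difference is given below.

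**Figure D1:**
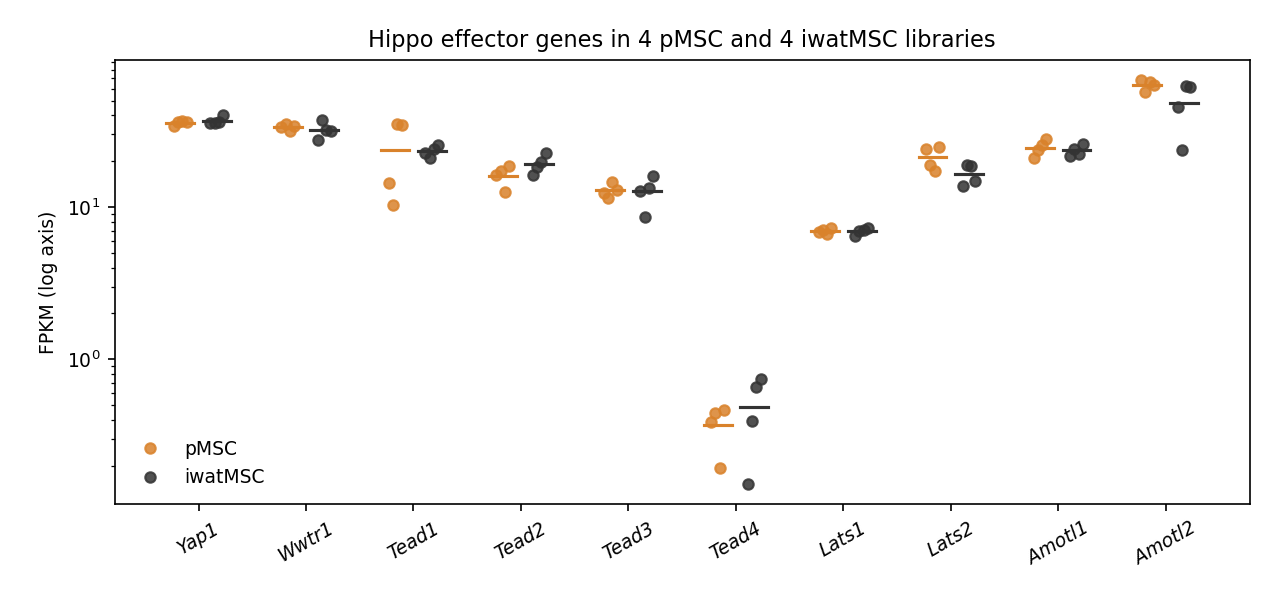
FPKM (log axis) of the 10 Hippo effector genes in each of 4 pMSC (orange) and 4 iwatMSC (black) libraries, with points in library order and bars at the group mean. Amotl2, Yap1 and Wwtr1 are the most abundant, Tead4 lies under 1 FPKM in all libraries, and Tead1 splits the pMSC libraries into 10.3 and 14.3 FPKM against 34.8 and 35.2 FPKM.

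The coactivators had no detectable difference in level between the organs. Yap1 (ENSMUSG00000053110, chr9:7931999-8004596, minus strand) was at 34.0, 36.3, 36.7 and 36.2 FPKM in pMSC 1 to 4 and at 35.5, 35.8, 36.3 and 40.2 FPKM in iwatMSC 1 to 4. The groups overlapped, and the highest value was that of iwatMSC 4. The log2 fold change of Yap1 was -0.04 ± 0.06 (SE), with a 95% interval from -0.19 to 0.10 (limma, adjusted p = 0.682). Wwtr1 (ENSMUSG00000027803, chr3:57455649-57575910, minus strand) was at 33.8, 35.4, 31.8 and 34.0 FPKM in pMSCs and at 27.5, 37.1, 32.3 and 31.4 FPKM in iwatMSCs. Here iwatMSCs held both the lowest and the highest library. The log2 fold change of Wwtr1 was 0.08, with a 95% interval from -0.13 to 0.28 (limma, adjusted p = 0.596). Yap1 made up 51.5% ± 1.53 (SD, n = 4) of the summed Yap1 and Wwtr1 FPKM in pMSCs and 53.6% ± 3.43 (SD, n = 4) in iwatMSCs, so the coactivator genes were near the same level in either organ.

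Among the TEAD genes, Tead1 differed more between pMSC libraries than between the organs. Tead1 (ENSMUSG00000055320, chr7:112679318-112906807, plus strand) was at 14.3, 10.3, 35.2 and 34.8 FPKM in pMSC 1 to 4 and at 22.5, 21.0, 24.2 and 25.6 FPKM in iwatMSC 1 to 4. The iwatMSC libraries all fell in the gap between the lower and the higher pair of pMSC libraries. The group means were 23.6 ± 13.2 and 23.3 ± 1.99 FPKM (SD, n = 4 each), with a log2 fold change of -0.16 ± 0.36 (SE), a 95% interval from -0.96 to 0.64 and an adjusted p of 0.8 (limma). Without pMSC 1 and 2, a choice made after seeing the data, the log2 fold change was 0.57 with an adjusted p of 0.0133 (limma), in a fit that called 11.0% of all genes tested. These are also the pMSC libraries with the highest acinar transcripts. Summed markers of pericytes and smooth muscle split the pMSC libraries in the same way. They were at 1218 and 1286 FPKM in pMSC 1 and 2 and at 690 and 590 FPKM in pMSC 3 and 4. That sum was mostly Acta2 (743, 786, 425 and 343 FPKM) and Tagln (422, 445, 234 and 208 FPKM). The study used Acta2 among its markers of fibrogenesis, so the sum does not by itself name a cell type. Cnn1, Actg2 and Myh11 split likewise, but Des (18.1, 15.1, 11.8 and 19.7 FPKM), Cspg4 and Rgs5 did not. Of the epithelial genes, Krt8 (11.3, 9.48, 4.34 and 5.13 FPKM), Krt18 (17.8, 15.1, 6.15 and 6.66 FPKM), Krt19 and Epcam split likewise. Cdh1 and Krt7 did not, and Sox9 ran the other way (10.6, 10.7, 14.3 and 16.7 FPKM). The part of such RNA in the Tead1 values was not tested.

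Tead2 (chr7:45215753-45233644, plus strand) was at 16.2, 17.3, 12.5 and 18.5 FPKM in pMSCs and at 16.3, 18.4, 19.8 and 22.6 FPKM in iwatMSCs. Its log2 fold change was -0.25, with a 95% interval from -0.55 to 0.05 (limma, adjusted p = 0.229). Tead3 (chr17:28331671-28350817, minus strand), of which 8 of 9 annotated transcripts were in the table, was at 12.4, 11.5, 14.6 and 13.0 FPKM in pMSCs and at 12.8, 8.67, 13.3 and 15.9 FPKM in iwatMSCs. The Tead3 interval ran from -0.31 to 0.40 around a log2 fold change of 0.05 (limma, adjusted p = 0.873). Tead4 (chr6:128224288-128300823, minus strand) was between 0.193 and 0.463 FPKM in pMSCs and between 0.152 and 0.738 FPKM in iwatMSCs, under the mean of 1 FPKM needed for the test. Of the summed FPKM of the 4 TEAD genes, Tead1 took 39.5% to 43.4% in iwatMSCs and 26.0% to 56.3% in pMSCs, and Tead4 took at most 1.14% in any library.

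The LATS kinases phosphorylate YAP and TAZ. Lats1 (ENSMUSG00000040021, chr10:7681214-7716460, plus strand) was narrow, at 6.90, 7.12, 6.69 and 7.24 FPKM in pMSCs and at 6.45, 7.01, 7.08 and 7.25 FPKM in iwatMSCs. Its log2 fold change was 0.01, with a 95% interval from -0.15 to 0.16 (limma, adjusted p = 0.956). Lats2 (ENSMUSG00000021959, chr14:57689662-57758388, minus strand), which is itself known as a YAP target, was at 24.0, 18.8, 17.2 and 24.8 FPKM in pMSCs and at 13.7, 19.0, 18.6 and 14.9 FPKM in iwatMSCs. The highest pair were pMSC libraries and the lowest pair iwatMSC libraries, with overlap in between. The Lats2 log2 fold change was 0.34 ± 0.14 (SE), with a 95% interval from 0.01 to 0.66 that takes no account of the number of genes, and with an adjusted p of 0.139 (limma) it was not called. Lats2 made up 72.0% to 77.7% of the summed Lats1 and Lats2 FPKM in pMSCs and 67.3% to 73.0% in iwatMSCs. The antisense gene Gm20430 overlaps Lats2 and was at 1.32 to 3.35 FPKM. Since no strand setting is stated, reads of the pair cannot be told apart.

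The angiomotin-like proteins bind YAP and tether it to junctions. Amotl1 (ENSMUSG00000013076, chr9:14541966-14645056, minus strand) was at 21.0, 23.6, 25.5 and 28.1 FPKM in pMSCs and at 21.8, 24.2, 22.4 and 26.0 FPKM in iwatMSCs, and its log2 fold change was 0.05, with a 95% interval from -0.17 to 0.27 (limma, adjusted p = 0.773). Amotl2 (ENSMUSG00000032531, chr9:102716672-102733418, plus strand), also known as a YAP target, was the most abundant member, at 68.2, 57.2, 66.6 and 63.3 FPKM in pMSCs and at 45.2, 23.7, 62.1 and 61.4 FPKM in iwatMSCs. Lower values were seen in iwatMSC 1 and iwatMSC 2, while the other two iwatMSC libraries lay within the pMSC range. The group means were 63.8 ± 4.84 and 48.1 ± 18.1 FPKM (SD, n = 4 each), and the log2 fold change was 0.49 ± 0.27 (SE), with a 95% interval from -0.11 to 1.09 (limma, adjusted p = 0.238).

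Amot, the gene of the third angiomotin and not a member of the list above, did differ. It was at 5.05, 5.08, 6.23 and 5.30 FPKM in pMSCs and at 16.0, 11.3, 15.7 and 15.4 FPKM in iwatMSCs, and the groups lay well apart. Its log2 fold change was -1.27 ± 0.12 (SE; limma, adjusted p = 9.53e-05), and it was called under each of 20 alternatives. Within the angiomotin family, Amot accounted for 5.36% to 6.34% of the summed FPKM in pMSCs and 15.0% to 19.2% in iwatMSCs. Amotl2 held 65.5% to 72.4% of it in pMSCs and 40.0% to 62.0% in iwatMSCs, and Amotl1 held 22.3% to 29.0% and 22.3% to 40.9%.

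In both organs the members' mean levels in FPKM, which are per length, started with Amotl2, Yap1, Wwtr1, Amotl1 and Tead1 and ended with Tead3, Lats1 and Tead4. Lats2 stood before Tead2 in pMSCs and after it in iwatMSCs, with overlapping ranges in each organ. Ranges did not overlap between Wwtr1 and Amotl1, between Tead3 and Lats1 or between Lats1 and Tead4 in either organ, nor between Amotl2 and Yap1 in pMSCs, and the other neighbours in the order overlapped. By Pearson correlation of log2(FPKM + 1) over the 8 libraries, the genes most like Yap1 among 9137 genes averaging 5 FPKM or more were Renbp (r = 0.960), Arfgef1 (r = 0.934) and Atp11a (r = 0.910). For all 3, as for Yap1, iwatMSC 4 was the highest library. Those most like Wwtr1 were Clic1 (r = 0.993), Slc25a39 (r = 0.977) and Gprc5a (r = 0.973), each lowest in iwatMSC 1 and highest in iwatMSC 2, as was Wwtr1. These r values are a description of 8 libraries that share their scaling, with no test.

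**Figure D2:**
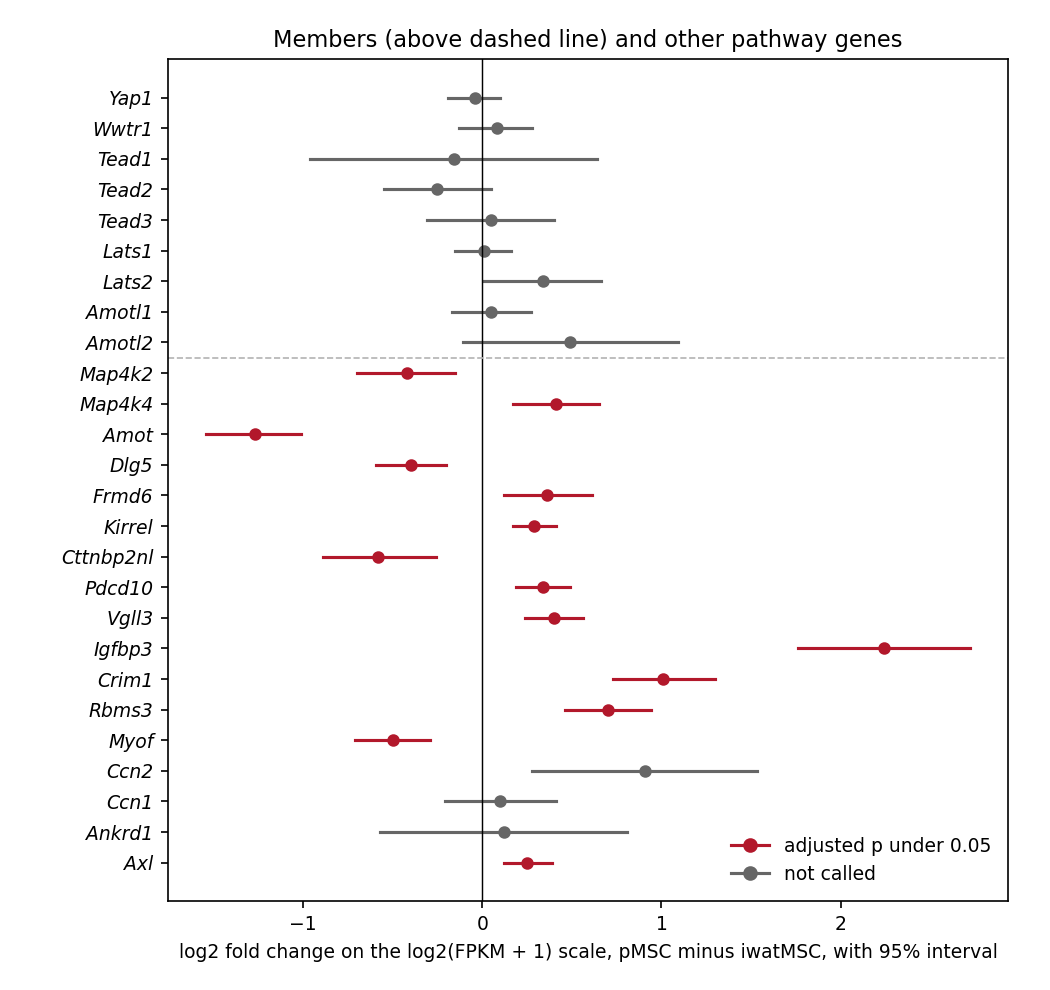
Log2 fold change on the log2(FPKM + 1) scale, pMSC minus iwatMSC, with its 95% interval from limma, for the 9 tested members (above the dashed line) and the other named pathway genes, with genes called at an adjusted p under 0.05 in red. The intervals of 8 of the members span 0 and that of Lats2 starts at 0.01, while Amot lies at -1.27 and Igfbp3 at 2.24.

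Below the gene level, the 10 members have 89 transcripts in the table, of which 14 were listed at 0 in all libraries and 27 averaged 1 FPKM or more and were tested. None was called by limma, against 5.54% of all 24686 transcripts tested. By limma, 3 of the 27 (Tead1-201, Tead1-214 and Lats2-201) had an unadjusted p under 0.05, and the unequal-variance test also called none. The shares over all transcripts that belong beside these last counts are not given here, so the counts are not read as a result. A test of transcript usage, which asks whether the difference between organs is the same for all transcripts of a gene, called 0 of 7 members against 1.88% of 5524 genes. Tead1 alone among the 7 had an unadjusted p under 0.05 (F = 3.66, limma, adjusted p = 0.317). It was called without the filter (adjusted p = 0.0281), as were 8.98% of genes, and without pMSC 1 and 2 (adjusted p = 0.0484), as were 1.91% of genes. Leaving out these libraries was a choice made after their Tead1 values were seen, so that call is no independent support. How StringTie divides reads among overlapping transcripts bears on all transcript values. In simulated data these tests recovered 2-fold changes for only 25.7% of changed transcripts and 7.81% of genes changed in usage. The changed features there were few and drawn from all levels past the filter, so these rates need not hold for the members. A missed call does not show equal transcript levels or usage.

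Yap1 was carried mainly by a pair of transcripts that differ at the 48-base exon printed above. Yap1-201, with the exon, was at 14.6, 14.6, 17.2 and 3.46 FPKM in pMSC 1 to 4 and at 7.08, 4.22, 7.08 and 5.32 FPKM in iwatMSC 1 to 4. Yap1-202, without it, was at 17.5, 15.1, 18.1 and 31.2 FPKM in pMSCs and at 26.0, 25.5, 26.2 and 26.6 FPKM in iwatMSCs. All pMSC libraries but pMSC 4 were higher in Yap1-201 and lower in Yap1-202 than every iwatMSC library, and in pMSC 4 the order was the reverse. Transcripts with this exon summed to 46.5%, 58.1%, 50.3% and 13.8% of Yap1 FPKM in pMSCs and to 23.4%, 25.4%, 23.8% and 31.1% in iwatMSCs. With all libraries the log2 fold changes were 0.80 for Yap1-201 (limma, adjusted p = 0.392) and -0.39 for Yap1-202 (limma, adjusted p = 0.356). Without pMSC 4 they were 1.27 (adjusted p = 0.0131) and -0.60 (adjusted p = 0.0112), so that library decided the call.

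A further Yap1 transcript separated the organs at a low level. Yap1-208, annotated as a retained intron of 5282 bases (chr9:7996908-8004596, minus strand), was at 0.0763, 0.141, 0.0788 and 0.0002 FPKM in pMSCs and at 1.24, 1.11, 1.36 and 1.05 FPKM in iwatMSCs. The groups did not overlap. It is described because its mean in iwatMSCs alone was over 1 FPKM, a choice that favours such a gap. Its mean over the 8 libraries was under the 1 FPKM filter, and without the filter its log2 fold change was -1.03 (limma, adjusted p = 0.00438), in a fit that called 1.52% of all transcripts.

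Tead1 transcripts followed the split of the pMSC libraries. Tead1-202, which carries the downstream exon and ends in a last exon of 8259 bases, was at 0, 0.389, 29.5 and 29.4 FPKM in pMSC 1 to 4 and at 18.2, 14.9, 20.7 and 19.1 FPKM in iwatMSC 1 to 4. Tead1-207, with the upstream and the 12-base exon and a last exon of 114 bases, was at 5.09, 4.29, 0.634 and 0.720 FPKM in pMSCs and at 0.355 to 0.849 FPKM in iwatMSCs. Thus pMSC 1 and 2 were low where all other libraries were high, and the reverse. Transcripts with only the downstream exon of the pair made up 19.6% and 14.0% of Tead1 FPKM in pMSC 1 and 2, 85.9% and 87.1% in pMSC 3 and 4, and 71.2% to 86.0% in iwatMSCs. Those with only the upstream exon made up 35.5% and 41.7% in pMSC 1 and 2, 1.80% and 2.07% in pMSC 3 and 4, and 1.58% to 3.50% in iwatMSCs. Those with both made up 0.258% to 5.79% in pMSCs and 2.09% to 21.5% in iwatMSCs, and the rest, retained introns among them, had neither as a separate exon. The retained-intron transcript Tead1-214 was at 2.90, 1.85, 2.43 and 2.75 FPKM in pMSCs and at 1.26, 0.192, 1.30 and 1.05 FPKM in iwatMSCs, without overlap, as for 14.3% of all transcripts tested, and with a log2 fold change of 0.87 (limma, adjusted p = 0.0855). Its iwatMSC mean was 0.949 FPKM, so it passed the filter through its pMSC values, which favours such a gap.

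Because FPKM divides by length, a library that assigns a gene to short transcripts can keep a high FPKM from few fragments. Each transcript's FPKM was multiplied by its length in kb and summed per gene, a choice made after seeing the data. In a library, this gives a value proportional to the fragments that StringTie credited to the gene's annotated transcripts. It still rests on that assignment. For Tead1 it was 23.1 and 22.3 in pMSC 1 and 2, 287 in both pMSC 3 and pMSC 4, and 196, 188, 205 and 219 in iwatMSC 1 to 4. The split was thus wider on this scale than in FPKM. For the other 8 tested members no library lay under 25% of the gene's median over the 8 libraries, and 3.3% of all genes tested had at least 1 such library. No member was called on this scale either (Tead1 log2 fold change -1.29, limma, adjusted p = 0.318).

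**Figure D3:**
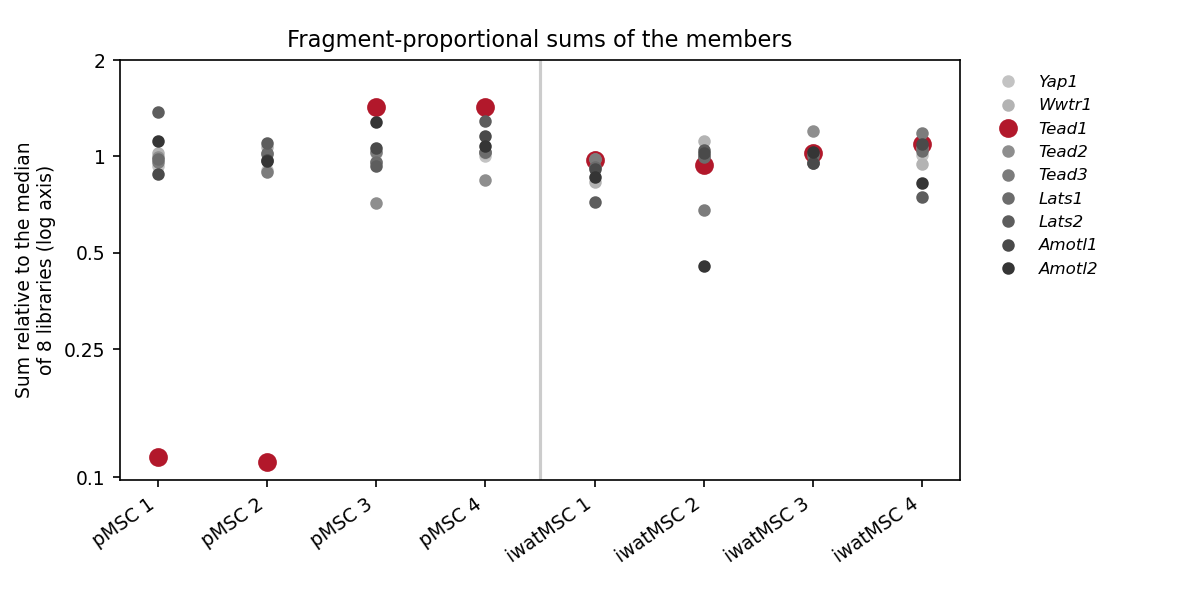
Fragment-proportional sum (FPKM times length in kb, summed per gene) of each tested member in each library, divided by the gene's median over 8 libraries (log axis), with Tead1 in red and the other members in grey. Tead1 lies near 0.1 in pMSC 1 and 2, and all other points lie above 0.25.

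Lats2 and Amotl2 also differed in their transcripts between libraries of the same organ. Lats2-201 was at 20.1, 16.4, 10.4 and 11.7 FPKM in pMSCs and at 10.7, 11.6, 8.19 and 8.71 FPKM in iwatMSCs (log2 fold change 0.50, limma, adjusted p = 0.258). Lats2-207 was between 1.25 and 11.8 FPKM in pMSCs and between 0.453 and 9.34 FPKM in iwatMSCs. Amotl2-201 held 74.2% to 87.2% of Amotl2 in pMSCs and 69.2% to 90.8% in iwatMSC 1 to 3, but 4.63% in iwatMSC 4. There Amotl2-203 was at 32.3 FPKM, against at most 0.132 FPKM in the other 7 libraries. Lats1, Amotl1 and Wwtr1 kept 1 leading transcript, with 94.3% to 97.6% in Lats1-202, 93.1% to 96.3% in Amotl1-201 and 89.2% to 100% in Wwtr1-201.

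**Figure D4:**
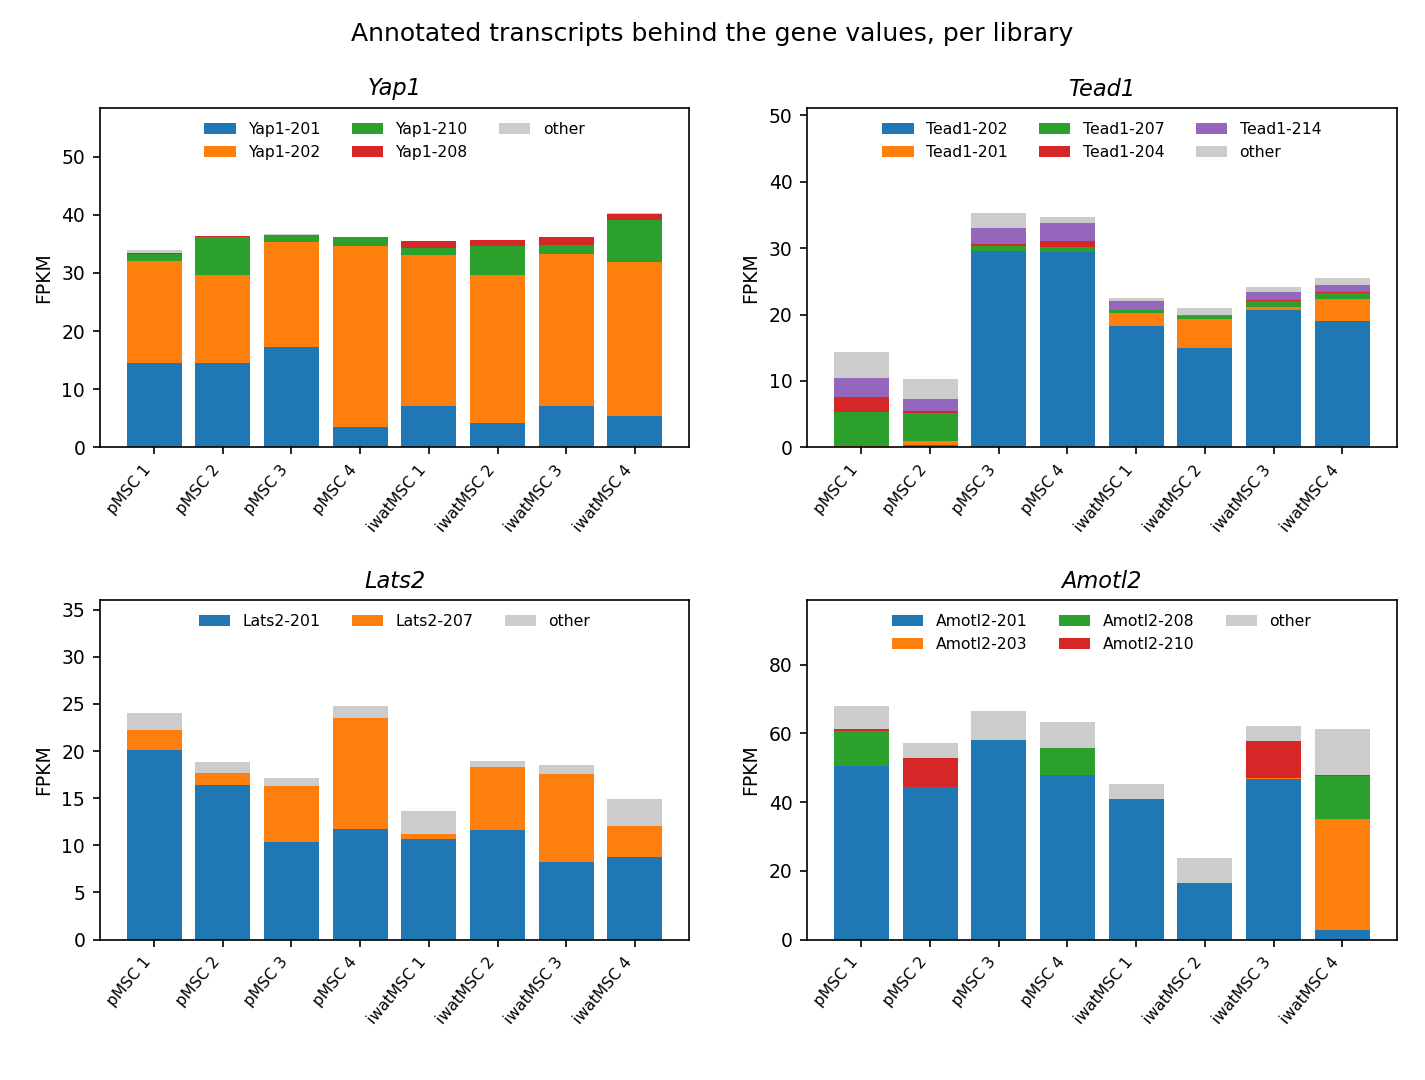
Stacked FPKM of the annotated transcripts of Yap1, Tead1, Lats2 and Amotl2 in each of 8 libraries, each colour 1 transcript and grey the rest. Tead1-202 is all but missing from pMSC 1 and 2, Yap1-201 is low in pMSC 4 and the iwatMSC libraries, and Amotl2-203 appears in iwatMSC 4.

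Promoters of members and targets were searched for the TEAD motif GGAATG on either strand (CATTCC on the other), in RefSeq windows from 250 bases before to 50 after the annotated start (GRCm38.p6). Of the members, 8 genes had a window and 5 of these held the motif (Yap1, Wwtr1, Tead3, Lats2 and Amotl2), as did 16.6% of 27025 genes with a window. Of the target signature genes outside the members, 13 had a window and 5 of these held the motif (38.5%). Igfbp3, Rbms3 and Myof were among those without it, and the other Lats2 window also held none. Windows of Amotl2, Lats2 and the target Ccn1 are shown 5′ to 3′ on the gene's strand, with the motif in capitals. They are examples of windows with the motif from genes known as YAP targets. A match describes these letters and not binding.
Amotl2 (chr9:102717554-102717853, plus strand): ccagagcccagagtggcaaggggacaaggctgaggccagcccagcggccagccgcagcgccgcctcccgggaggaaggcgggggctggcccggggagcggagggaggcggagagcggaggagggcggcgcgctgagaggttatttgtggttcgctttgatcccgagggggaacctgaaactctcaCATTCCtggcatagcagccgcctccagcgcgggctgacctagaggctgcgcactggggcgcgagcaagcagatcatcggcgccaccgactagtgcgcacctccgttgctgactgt
Lats2 (chr14:57746074-57746373, minus strand): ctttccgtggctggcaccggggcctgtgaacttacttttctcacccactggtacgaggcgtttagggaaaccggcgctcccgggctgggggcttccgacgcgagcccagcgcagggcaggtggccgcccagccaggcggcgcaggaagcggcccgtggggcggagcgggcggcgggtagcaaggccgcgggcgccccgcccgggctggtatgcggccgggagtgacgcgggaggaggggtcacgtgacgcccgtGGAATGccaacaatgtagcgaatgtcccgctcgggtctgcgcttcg
Ccn1 (chr3:145649936-145650235, minus strand): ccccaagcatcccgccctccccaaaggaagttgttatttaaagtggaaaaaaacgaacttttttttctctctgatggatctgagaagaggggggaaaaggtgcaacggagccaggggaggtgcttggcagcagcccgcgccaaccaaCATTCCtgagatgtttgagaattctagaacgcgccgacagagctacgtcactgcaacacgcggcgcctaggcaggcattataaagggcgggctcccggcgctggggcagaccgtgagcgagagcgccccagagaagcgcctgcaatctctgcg
The motif began 65 bases before the start in Amotl2 and 103 bases before it in Ccn1, and it lay just after the start in Lats2.

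The other genes of the pathway were read from lists of known components. Of 17 core kinases and scaffolds, 15 were tested, 1 was higher and 1 lower in pMSCs (13.3% called, against 19.4% of all genes tested). Map4k4, a kinase that can phosphorylate LATS, was at 171, 168, 164 and 225 FPKM in pMSCs and at 141, 123, 136 and 143 FPKM in iwatMSCs (log2 fold change 0.41, limma, adjusted p = 0.0254). Its relative Map4k2 was at 1.96 to 3.07 FPKM in pMSCs and 3.44 to 4.39 FPKM in iwatMSCs (-0.42, limma, adjusted p = 0.0383). The kinase genes Stk3 and Stk4, which encode MST2 and MST1, and the scaffold gene Sav1 were not called (limma, adjusted p = 0.763, 0.640 and 0.923). Leaving out iwatMSC 2 or iwatMSC 3 raised the adjusted p of Map4k4 to 0.0618 and 0.0628, and Map4k2 lost its call without any 1 of 7 libraries, all but pMSC 4.

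Upstream of the kinases, 17 of 25 genes were tested, 2 were higher and 2 lower in pMSCs (23.5% called, near the 19.4% of all genes tested). Besides Amot, Dlg5, a scaffold gene of cell polarity, was lower in pMSCs, at 19.9 to 23.8 FPKM against 26.1 to 32.0 FPKM (-0.40, limma, adjusted p = 0.0128). Kirrel, the gene of an immunoglobulin-family adhesion protein, was higher, at 69.9 to 72.2 FPKM against 56.8 to 61.0 FPKM (0.29, limma, adjusted p = 0.00477). Frmd6, a FERM-domain gene, was at 26.8 to 36.9 FPKM against 22.0 to 25.3 FPKM (0.36, limma, adjusted p = 0.0448), a call lost on leaving out any 1 of 6 libraries, all but pMSC 3 and 4. Nf2, the gene of merlin, was at 17.8 to 21.7 FPKM in pMSCs and 18.0 to 20.3 FPKM in iwatMSCs (limma, adjusted p = 0.844).

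In the STRIPAK complex, which dephosphorylates the MST kinases, 13 of the 14 genes reported here were tested, 1 was higher and 1 lower in pMSCs (15.4% called, against 19.4% of all genes tested). Pdcd10 was at 24.6 to 27.4 FPKM in pMSCs and 18.7 to 20.8 FPKM in iwatMSCs (0.34, limma, adjusted p = 0.00618). Cttnbp2nl was at 11.0, 11.1, 10.9 and 11.5 FPKM in pMSCs and at 12.1, 18.1, 19.5 and 19.7 FPKM in iwatMSCs (-0.58, limma, adjusted p = 0.0195), and its antisense neighbour Gm40117 was at 4.05 to 11.1 FPKM. Cttnbp2nl lost its call without iwatMSC 2, 3 or 4 (adjusted p = 0.0507 to 0.0591). Of 4 vestigial-like cofactors of TEAD, 2 were tested and Vgll3 was called, at 75.6, 76.0, 73.0 and 76.8 FPKM in pMSCs and at 50.3, 60.4, 56.8 and 60.7 FPKM in iwatMSCs (0.40, limma, adjusted p = 0.0044), while Vgll4 was not (adjusted p = 0.142).

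A signature of 22 genes known to follow YAP and TAZ, which includes Lats2 and Amotl2, had 21 genes tested. Of these, 4 were higher and 2 lower in pMSCs (28.6% called, against 19.4% of all genes tested). Unadjusted p-values were under 0.05 for 11 genes (52.4%, against 32.8% of all genes), and the groups of 8 did not overlap (38.1%, against 24.4%). The median log2 fold change was 0.25, against -0.03 over all genes, and 0.13 over the 19 tested genes other than members. The higher genes were Igfbp3, Crim1, Rbms3 and Axl, and the lower ones Myof and Fjx1.

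Igfbp3, which encodes a binding protein of insulin-like growth factors, was at 54.6, 39.5, 72.0 and 47.5 FPKM in pMSCs and at 12.3, 13.6, 8.33 and 7.80 FPKM in iwatMSCs. With a log2 fold change of 2.24 ± 0.21 (SE; limma, adjusted p = 0.000112) it had the widest gap of the signature. Crim1, the gene of a transmembrane protein that binds BMPs, was at 18.5 to 25.6 FPKM and 8.52 to 11.0 FPKM (1.01, limma, adjusted p = 0.000602), from 1 of its 6 annotated transcripts, and it overlaps Fez2 on the other strand (27.3 to 44.3 FPKM). Rbms3, an RNA-binding protein gene, was at 9.92 to 11.9 FPKM and 5.36 to 7.64 FPKM (0.70, limma, adjusted p = 0.00178). Myof, the gene of myoferlin, a membrane repair protein, was at 67.5, 75.1, 62.8 and 73.1 FPKM in pMSCs and at 84.3, 108, 97.0 and 107 FPKM in iwatMSCs (-0.50, limma, adjusted p = 0.00603). Axl, a receptor tyrosine kinase gene, was at 386 to 416 FPKM and 328 to 367 FPKM (0.25, limma, adjusted p = 0.0185). Over its protein-coding transcripts alone its log2 fold change was 0.05 (adjusted p = 0.751), and without pMSC 1, pMSC 2 or iwatMSC 4 the adjusted p was 0.0510 to 0.0558.

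Of the best-known targets, Ccn2, Ccn1 and Ankrd1 were not called. Ccn2 (connective tissue growth factor) was at 404, 477, 337 and 387 FPKM in pMSCs and at 109, 241, 283 and 271 FPKM in iwatMSCs. All pMSC libraries were above all iwatMSC libraries, with iwatMSC 1 far below the rest. Its log2 fold change was 0.91 ± 0.28 (SE; limma, adjusted p = 0.0502), just short of the threshold. It was called under 7 of 20 alternatives, over all of which the adjusted p ran from 0.00948 (0.59 on the log2 scale, without iwatMSC 1) to 0.239 (0.77, without pMSC 1 and 2). The antisense gene Gm15270 overlaps Ccn2 and was at 94.1 to 152 FPKM in pMSCs and 47.8 to 93.9 FPKM in iwatMSCs. Ccn1, a related matrix protein gene, was at 253, 276, 210.1 and 216 FPKM in pMSCs and at 172, 226, 246 and 253 FPKM in iwatMSCs, with overlap (0.10, limma, adjusted p = 0.665). Ankrd1, a muscle ankyrin repeat gene, was at 2.74 to 6.22 FPKM and 1.51 to 5.49 FPKM, from 1 of its 6 transcripts (0.12, limma, adjusted p = 0.823). Beside these targets, summed markers of pericytes and smooth muscle (8 genes, 2 of them under 1 FPKM on average and none at 0 throughout) were at 590 to 1286 FPKM in pMSCs and 142 to 385 FPKM in iwatMSCs, and those of the mesothelium (6 genes) at 21.3 to 39.2 and 5.72 to 14.6 FPKM. Acta2 and Tagln made up most of the pericyte and smooth muscle sum in every library, so that sum does not by itself name a cell type. Rgs5 of that list averaged 0.123 FPKM in pMSCs and 0.107 FPKM in iwatMSCs. Of the mesothelial genes, Wt1 was at 12.2, 14.1, 15.8 and 16.0 FPKM in pMSCs, and Wt1, Upk3b, Lrrn4 and Msln were listed at 0 in every iwatMSC library, where nearly all of the sum was Krt19 (5.69 to 14.5 FPKM, against 2.41 to 3.80 FPKM in pMSCs). Their part in the target values was not tested.

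**Figure D5:**
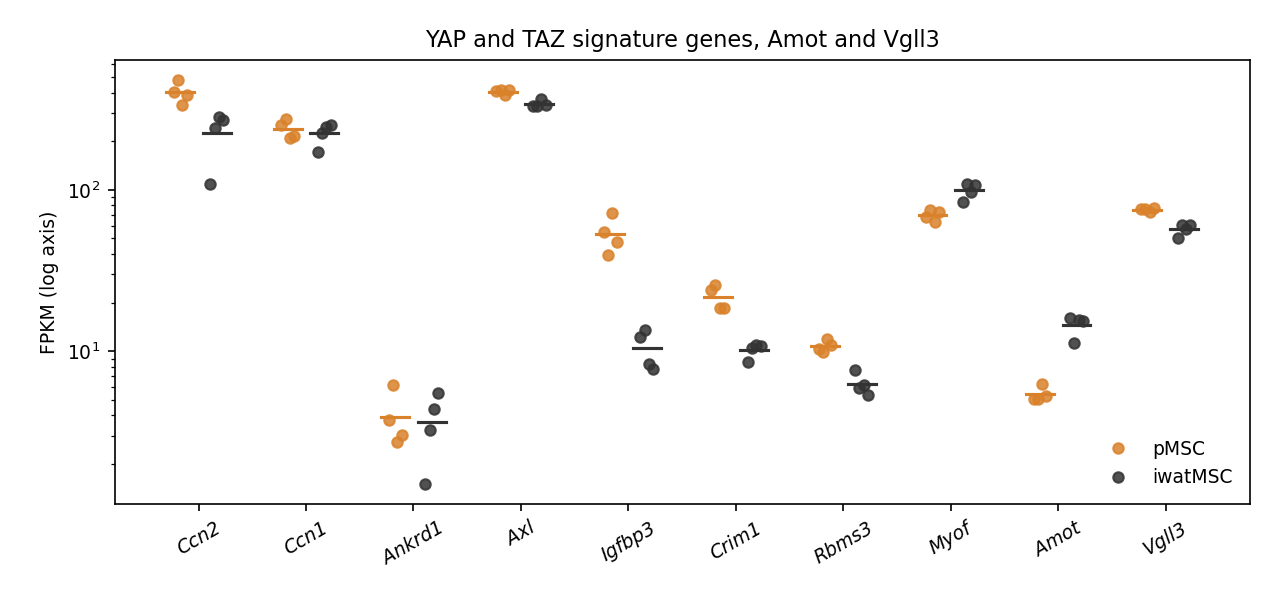
FPKM (log axis) of 8 genes of the YAP and TAZ signature and of Amot and Vgll3 in each of 4 pMSC (orange) and 4 iwatMSC (black) libraries, with bars at the group mean. Igfbp3, Crim1 and Rbms3 are higher and Myof and Amot lower in pMSCs, while Ccn1 and Ankrd1 overlap.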

How the data were processed

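FPKM per Ensembl transcript were deposited by the authors, who aligned reads of mRNA-enriched RNA with STAR to GRCm38.p6 and quantified transcripts with StringTie at default options. The annotation release and the strand setting are not given in the sources used here. All 8 value columns were mapped to samples by name (0 columns had no sample). Of 136535 transcripts, 136372 matched GENCODE M21, and FPKM were summed per gene. Genes averaging 1 FPKM or more were tested with limma 3.58.1 (R 4.3.3) on log2(FPKM + 1) with a trended prior, two-sided and without covariates. P-values were adjusted over all features tested by the Benjamini-Hochberg method, with calls under 0.05. Transcripts were tested likewise, and usage by an F test on limma's fit within genes with 2 or more tested transcripts. The tests were checked on simulated data.

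The members and lists were chosen with earlier results of these data known. The rule names all members, up to 4 called genes of each list, member transcripts averaging 1 FPKM or more in a group, the targets Ccn2, Ccn1, Ankrd1 and Axl, and the 3 genes most like Yap1 and Wwtr1. Fjx1, Stk3, Stk4, Sav1, Nf2 and Vgll4 were added after their values were seen. Of the pathway lists, 1 gene is not reported here. Alternatives were pseudocounts of 0.1 and 5, other filters, TPM, median-of-ratios and quantile scaling, array weights, an unequal-variance test, protein-coding transcripts only and leaving out each library. Fragment-proportional sums and leaving out pMSC 1 and 2 were added after seeing the data.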

Additional observations from a re-analysis of the deposited data

Results flagged for a closer look

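In 13 of 110 groups of 4 libraries (11.8%), for the named genes and transcripts, 1 library lay far from the others by Dixon's criterion. Chance gives about 1 in 20 for independent normal values. These groups include zeros and transcripts of the same gene, so no excess is read from the share. At the gene level the outlying values were Yap1 at 40.2 FPKM in iwatMSC 4 (others 35.5 to 36.3), Map4k4 at 225 FPKM in pMSC 4 (others 164 to 171), Amot at 11.3 FPKM in iwatMSC 2 (others 15.4 to 16.0) and Kirrel at 61.0 FPKM in iwatMSC 1 (others 56.8 to 57.0).

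The Amotl2 transcripts gave 6 of the 13. In iwatMSC 4, Amotl2-203 was at 32.3 FPKM (others 0 to 0.118), Amotl2-208 at 12.5 FPKM (others 0) and Amotl2-209 at 1.85 FPKM (others 0.719 to 0.906). In pMSC 2, Amotl2-203 was at 0.132 FPKM (others 0) and Amotl2-210 at 8.52 FPKM (others 0 to 0.401), and in iwatMSC 3 Amotl2-210 was at 10.9 FPKM (others 0 to 0.23).

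Among other members, Tead2-211 was at 4.34 FPKM in pMSC 4 (others 0.676 to 0.802), Wwtr1-202 at 0.06 FPKM in pMSC 3 (others 1.62 to 1.80) and Yap1-210 at 6.51 FPKM in pMSC 2 (others 1.19 to 1.52).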

How the results depend on the processing

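Single genes and transcripts kept direction and side of the threshold in 573 of 641 comparisons with alternatives over 34 results, while 40 lost a call, 11 gained one (7 of them Ccn2) and 18 changed sign, 1 of them (Tead1) with a gained call. Without pMSC 1 and 2, 1 member (Tead1) was called and 1 for usage (Tead1). Without a filter, 1 member transcript (Yap1-208) and 1 member for usage (Tead1) were called, and on TPM 1 transcript (Yap1-208, past the filter there only through its iwatMSC values). Leaving out 1 library gave 0 members, 0 to 2 transcripts (Yap1-201 and Yap1-202 without pMSC 4, Tead1-201 without iwatMSC 3, adjusted p = 0.0133) and 0 members for usage. Tead1-201 averaged 0.233 FPKM in pMSCs and 2.56 FPKM in iwatMSCs, so it too passed the filter only through its iwatMSC values. With all libraries its log2 fold change was -1.40 (limma, adjusted p = 0.093), and the groups overlapped. In the fit without pMSC 1 and 2, the named genes Map4k2, Map4k4, Dlg5, Frmd6, Cttnbp2nl, Pdcd10 and Axl were no longer called, each in its former direction. By the unequal-variance test, Map4k2, Map4k4, Frmd6, Cttnbp2nl and Vgll3 were no longer called (adjusted p = 0.0525 to 0.143). Without pMSC 1 and 2, the log2 fold changes were 0.57 for Tead1, 0.67 for Tead1-202, -0.06 for Ccn1 and -0.18 for Ankrd1. With array weights they were -0.06 for Tead3, -0.01 for Lats1 and -0.01 for Ankrd1. Leaving out 1 library in turn gave -0.40 to 0.16 for Tead1, -0.11 to 0.16 for Tead3, -0.02 to 0.03 for Lats1, -0.02 to 0.12 for Amotl1, -0.02 to 0.16 for Ccn1 and -0.15 to 0.31 for Ankrd1. The cause was not tested. No paired analysis was possible because the labels give the groups no shared replicate numbers. As read depth is not known, the counting error could not be estimated, which weighs most on low values such as those of Tead4.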
